A study of Mus musculus with 19 samples.

Results

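The nuclear receptor PPAR-alpha, encoded by Ppara, and 8 of its classic target genes were followed across 19 mouse liver RNA-seq samples. The genes were chosen by symbol and are Ppara, Cyp4a10, Cyp4a14, Cyp4a31, Acot1, Acot3, Vnn1, Ehhadh and Cpt1a. All 9 were found among the 52110 named entries of the expression table. All 9 also had a mean of at least 1 FPKM (sequenced fragments per kilobase of transcript and per size of the library), and so were among the 10577 genes tested. All mice were wild type, per the labels. They received normal chow (NC) or CDAHFD, a high-fat diet that lacks choline, supplies its protein as defined L-amino acids and is used to produce steatohepatitis. Each diet was combined with remote limb ischemic conditioning (RIC), in which blood flow to a limb is repeatedly interrupted and restored, or with a sham procedure. There were 5 samples each of NC sham, NC RIC and CDAHFD sham, and 4 of CDAHFD RIC. Strain, sex, age, length of feeding, feeding state and hour of harvest are not in the sources used here. The labels number the samples within a group but do not say that each came from its own animal, so the p-values measure the spread between samples, which may be partly technical.

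PPAR-alpha is a fatty acid sensor of hepatocytes that binds DNA together with a retinoid X receptor and switches on genes for fatty acid disposal, most strongly during fasting or under fibrate drugs. Its targets hydroxylate fatty acids at the omega end in the endoplasmic reticulum, split acyl-CoA into fatty acid and coenzyme A, recycle pantetheine, and oxidise fatty acids in peroxisomes and mitochondria. In liver these genes are widely read as a gauge of receptor activity, although several also respond to other factors.

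The receptor and its targets did not move as a block. On the sham arm, Ppara and Cyp4a10 were lower on CDAHFD than on NC with no overlap between the groups, Acot1 was lower with overlap, and Cyp4a31 and Cpt1a were higher. Under median-ratio scaling Cyp4a31 did not pass and Cpt1a was lower. With RIC on CDAHFD, Ppara was 2.82-fold higher, Acot3 3.69-fold higher and Cpt1a 1.36-fold higher than with sham, each with no overlap. With RIC on NC, Cpt1a alone passed the test, and it was lower. The median log2 difference of the 9 genes was 0.57 with RIC on CDAHFD and -0.45 with RIC on NC. Over all genes tested these medians were -0.08 and -0.06.

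Counted over the 9 genes with limma at an adjusted p under 0.05, 5 passed for diet in the sham arm (2 higher, 3 lower). That test called 74.2% of all genes, 63.9% higher and 10.3% lower, and 6.91% were lower with no overlap, as Ppara and Cyp4a10 were. Under median-ratio scaling 5 of the 9 again passed, but all lower, against 30.5% of all genes lower. For RIC on CDAHFD 3 passed, all higher, against 27.3% of all genes called, 8.72% higher and 18.6% lower, and 5.26% were higher with no overlap, as all 3 were. For RIC on NC 1 passed, lower, against 1.18% of all genes called 0.860% called lower and 3.75% lower with no overlap. The interaction, which asks whether RIC acted differently on the 2 diets, passed for Ppara, Acot3 and Cpt1a, against 6.72% of all genes called and 3.59% called in the same direction. The diet and RIC comparisons on CDAHFD share the CDAHFD sham samples, and those on NC share the NC sham samples, so opposite differences in a gene are not independent of each other.

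**Figure D1:**
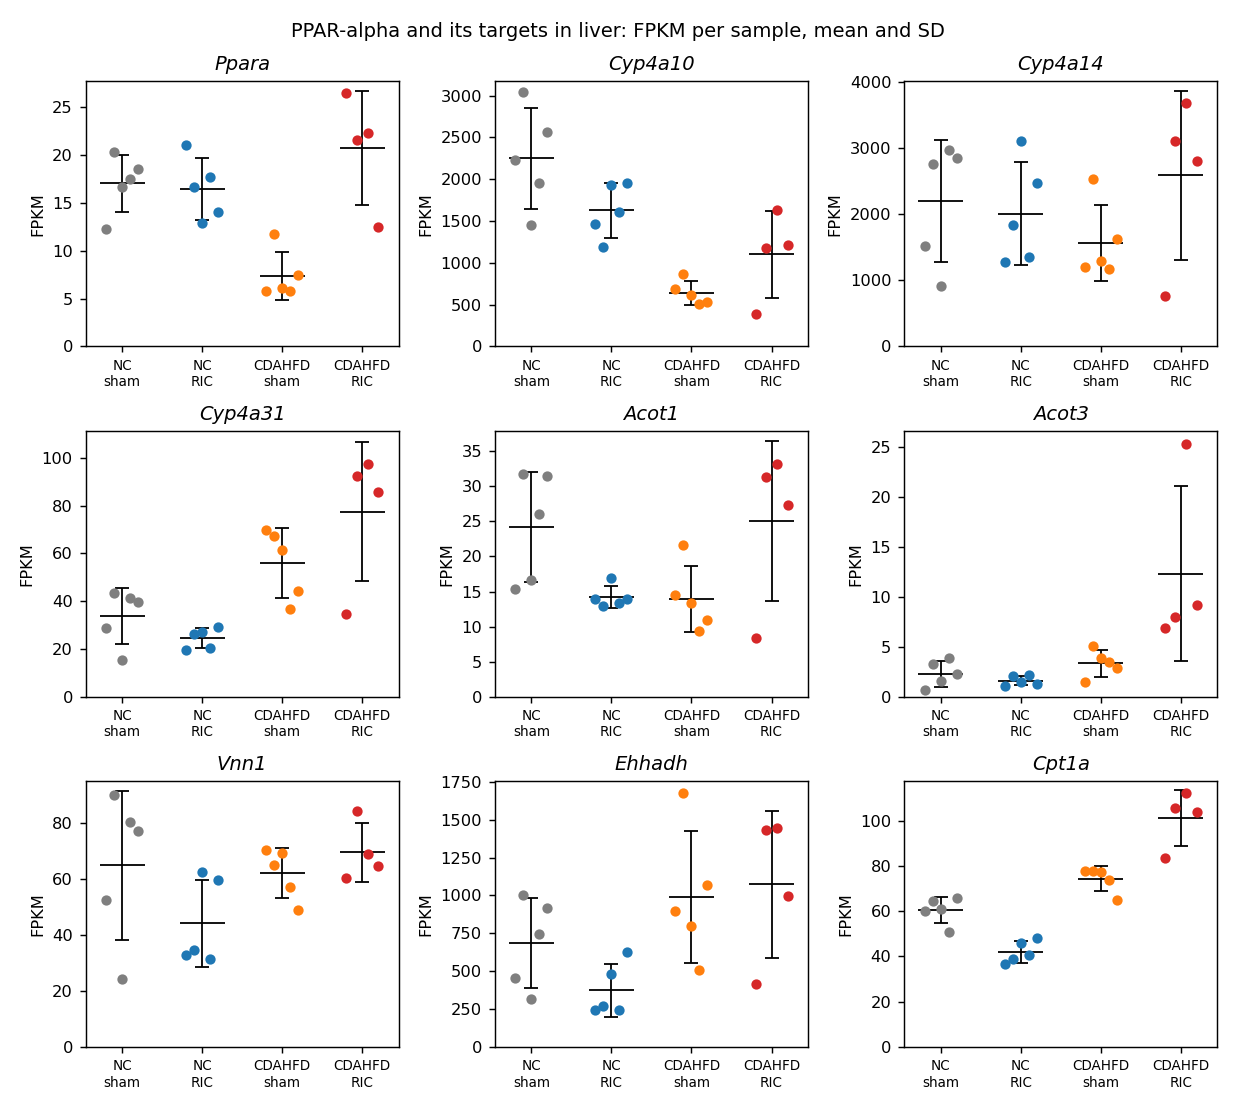
FPKM of each of the 9 genes (vertical axes from 0, 1 panel per gene) in every sample of the 4 groups, with points for samples in order of replicate number and bars for the mean and SD. CDAHFD sham samples lie lowest for Ppara, at 5.75 to 11.7 FPKM, and 1 CDAHFD RIC sample lies below the rest of its group for most targets.

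The scale of the table bears on the diet comparison. The median difference over all tested genes was 0.45 on the log2(FPKM + 1) scale for diet in the sham arm and 0.42 in the RIC arm, so a gene that tracked the median gene would appear higher on CDAHFD. It was -0.08 for RIC on CDAHFD and -0.06 for RIC on NC. Depth was estimated by taking the most common value of FPKM times length among single-exon genes as 1 read, which was assumed. It came to 15.95 to 26.4 M reads. On that estimate a single read in a 2 kb transcript was at most 0.0314 FPKM, far below every member's level. Summed FPKM of the 6 hepatocyte markers in the table were 45031 to 55413 in NC sham, 59618 to 69983 in NC RIC, 38272 to 42362 in CDAHFD sham and 36064 to 48692 in CDAHFD RIC. The 8 macrophage markers summed to 61.5 to 83.1 in NC sham and 635 to 765 in CDAHFD sham, and all 8 passed as higher, against 63.9% of all genes. In bulk tissue, fewer hepatocytes and less RNA per hepatocyte cannot be told apart.

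The genes lie at 6 places in the mm10 assembly. Ppara spans chr15:85734983-85802819 on the plus strand. The 3 Cyp4a genes lie close together on chromosome 4, with Cyp4a14 at chr4:115486200-115496142 (minus strand), Cyp4a10 at chr4:115518264-115533649 and Cyp4a31 at chr4:115563649-115579015 (both plus). Acot1 (chr12:84009490-84018371) and Acot3 (chr12:84052144-84060402) lie in 1 cluster on the plus strand of chromosome 12. Vnn1 spans chr10:23894688-23905343 (plus), Ehhadh chr16:21761287-21787807 (minus) and Cpt1a chr19:3322334-3385733 (plus). Of 50-base windows in their transcripts, 29.8% for Cyp4a10, 19.01% for Cyp4a31 and 31.8% for Acot1 occur unchanged in another gene of the family, so reads could be shared there and these levels are uncertain. Such windows made up 7.57% for Acot3 and 0 for Cyp4a14.

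RefSeq start-site windows of 300 bases (build GRCm38.p6, 250 bases before the start and 50 from it) matched 5 of the 9 genes: Ppara, Acot1, Acot3, Ehhadh and Cpt1a. No window was matched for Cyp4a10, Cyp4a14, Cyp4a31 or Vnn1. The windows of the 3 genes that rose with RIC on CDAHFD are printed 5′ to 3′ on the gene's strand, with that of Acot1, the cluster neighbour of Acot3 that did not pass. They are Ppara at chr15:85735526-85735825, Acot3 at chr12:84051894-84052193, Cpt1a at chr19:3323051-3323350 and Acot1 at chr12:84009252-84009551, all on the plus strand. Capitals mark exact matches on either strand to AGGTCA, the hexamer that nuclear receptors bind, and to CCAAT, the binding letters of NF-Y, which was added after the windows were read.
Ppara: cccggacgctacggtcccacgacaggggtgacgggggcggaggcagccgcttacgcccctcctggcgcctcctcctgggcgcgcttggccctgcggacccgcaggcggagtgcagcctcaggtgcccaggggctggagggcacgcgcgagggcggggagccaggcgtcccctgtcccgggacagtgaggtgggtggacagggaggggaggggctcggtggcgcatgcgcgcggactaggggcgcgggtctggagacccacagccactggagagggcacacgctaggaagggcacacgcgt
Acot3: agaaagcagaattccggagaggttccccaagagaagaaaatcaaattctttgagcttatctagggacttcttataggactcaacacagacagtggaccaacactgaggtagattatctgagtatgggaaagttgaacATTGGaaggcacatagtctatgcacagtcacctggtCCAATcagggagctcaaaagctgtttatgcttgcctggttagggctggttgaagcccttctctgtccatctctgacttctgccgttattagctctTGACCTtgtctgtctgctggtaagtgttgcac
Cpt1a: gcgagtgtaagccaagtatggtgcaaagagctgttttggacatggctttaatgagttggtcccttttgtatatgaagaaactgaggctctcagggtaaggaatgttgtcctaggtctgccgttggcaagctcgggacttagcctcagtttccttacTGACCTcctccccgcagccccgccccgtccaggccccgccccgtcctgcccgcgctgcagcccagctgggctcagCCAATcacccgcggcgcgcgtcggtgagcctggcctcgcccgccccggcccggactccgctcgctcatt
Acot1: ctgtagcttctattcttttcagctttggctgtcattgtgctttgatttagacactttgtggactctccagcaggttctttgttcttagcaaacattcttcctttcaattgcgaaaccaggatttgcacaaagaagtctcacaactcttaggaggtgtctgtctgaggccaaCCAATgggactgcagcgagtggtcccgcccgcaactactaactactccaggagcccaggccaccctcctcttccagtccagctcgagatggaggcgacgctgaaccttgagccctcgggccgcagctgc

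The hexamer AGGTCA occurred once in the Acot3 window (bases 19 to 24 after the start) and once in that of Cpt1a (bases -94 to -89), both read on the minus strand. It occurs in 16.3% of all 32851 such windows of the mouse. The form to which PPAR-alpha and its partner bind, 2 copies of AGGTCA with 1 base of any kind between them, was searched on both strands with up to 3 mismatches, and 24.65% of all windows hold such a match. The Acot3 window held 1, across bases -5 to 8, which does not overlap its hexamer, and the other 4 windows held none. CCAAT, found in 37.4% of all windows, occurred in those of Acot1, Acot3, Ehhadh and Cpt1a and not in that of Ppara, whose 300 bases are 74.7% G or C. These are matches of letters in short windows and were not tested as binding sites.

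Ppara, the receptor itself, was read at 12.3, 20.3, 16.6, 17.4 and 18.5 FPKM in NC sham and at 21.1, 16.6, 12.9, 17.7 and 14.0 FPKM in NC RIC. In CDAHFD sham it was 5.79, 11.7, 6.05, 5.75 and 7.47 FPKM, and in CDAHFD RIC 26.5, 21.6, 22.3 and 12.5 FPKM. All 5 CDAHFD sham samples lay below every other sample of the study, and the other 3 groups overlapped. Means were 17.0 ± 2.98 (SD, n = 5), 16.4 ± 3.23 (n = 5), 7.35 ± 2.53 (n = 5) and 20.7 ± 5.90 (n = 4) in that order.

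For diet in the sham arm Ppara fell by 1.14 on the log2 scale (SE 0.20, limma adjusted p = 4.22e-05). With RIC on CDAHFD it rose by 1.38 (SE 0.21, adjusted p = 0.000266), and on NC the difference was -0.05 (95% interval -0.46 to 0.37, adjusted p = 0.939). The 2 responses to RIC differed by 1.42 (SE 0.29, adjusted p = 0.0078). Between CDAHFD RIC and NC RIC the difference was 0.29 (95% interval -0.15 to 0.73, adjusted p = 0.229). The NC difference is near 0 and its sign turned with the scaling, to 0.03 under median-ratio scaling.

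Of the 3 omega-hydroxylases followed here, cytochrome P450 enzymes that start the breakdown of fatty acids from the far end, Cyp4a10 had the largest diet difference. It was read at 2232, 3041, 1455, 1958 and 2563 FPKM in NC sham and at 684, 861, 610, 511 and 532 FPKM in CDAHFD sham. These ranges lay far apart, and Cyp4a10 fell by 1.80 on the log2 scale (SE 0.29, limma adjusted p = 1.91e-05). In NC RIC it was 1459, 1186, 1926, 1607 and 1954 FPKM, inside or below the NC sham range, and the difference of -0.45 did not pass (adjusted p = 0.475). In CDAHFD RIC it was 385, 1179, 1631 and 1216 FPKM, so 3 samples lay above all CDAHFD sham samples and 1 lay below them all. That difference was 0.63 (95% interval -0.02 to 1.28, adjusted p = 0.135).

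Cyp4a14, its neighbour and, in this table, a gene of like level, had a smaller diet difference in the sham arm. Its difference with RIC on CDAHFD, 0.57, was close to the 0.63 of Cyp4a10. NC sham samples held 1522, 2751, 918, 2962 and 2838 FPKM and NC RIC samples 1269, 1830, 3108, 1350 and 2468 FPKM. CDAHFD sham samples held 1201, 2528, 1297, 1167 and 1616 FPKM and CDAHFD RIC samples 757, 3097, 3674 and 2802 FPKM. All 4 groups overlapped, and no comparison passed: -0.42 for diet in the sham arm (adjusted p = 0.350), 0.57 for RIC on CDAHFD (adjusted p = 0.336) and -0.09 for RIC on NC (adjusted p = 0.946). Under median-ratio scaling the first was -1.01 and passed (adjusted p = 0.0350).

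Cyp4a31, present at levels far below those of its neighbours, went the other way with diet. It was read at 28.9, 43.2, 15.2, 41.1 and 39.7 FPKM in NC sham and at 69.6, 67.3, 61.6, 36.5 and 44.1 FPKM in CDAHFD sham. The ranges met between 36.5 and 43.2, and the rise of 0.76 passed (SE 0.29, limma adjusted p = 0.0239). This call was lost without NC sham replicate 3 (0.51, adjusted p = 0.0875), CDAHFD sham replicate 1 (0.67, adjusted p = 0.0585) or CDAHFD sham replicate 2 (0.68, adjusted p = 0.0562). It was also lost without CDAHFD sham replicates 2 and 5 together (adjusted p = 0.0609) and without the filter on low values (adjusted p = 0.0546). Median-ratio scaling (0.19, adjusted p = 0.581) and quantile normalization (0.46, adjusted p = 0.185) lost it too. NC RIC samples held 19.4, 26.3, 26.9, 20.4 and 29.1 FPKM and CDAHFD RIC samples 34.4, 92.4, 97.3 and 85.7 FPKM. RIC gave 0.40 on CDAHFD (adjusted p = 0.343) and -0.37 on NC (adjusted p = 0.564).

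**Figure D2:**
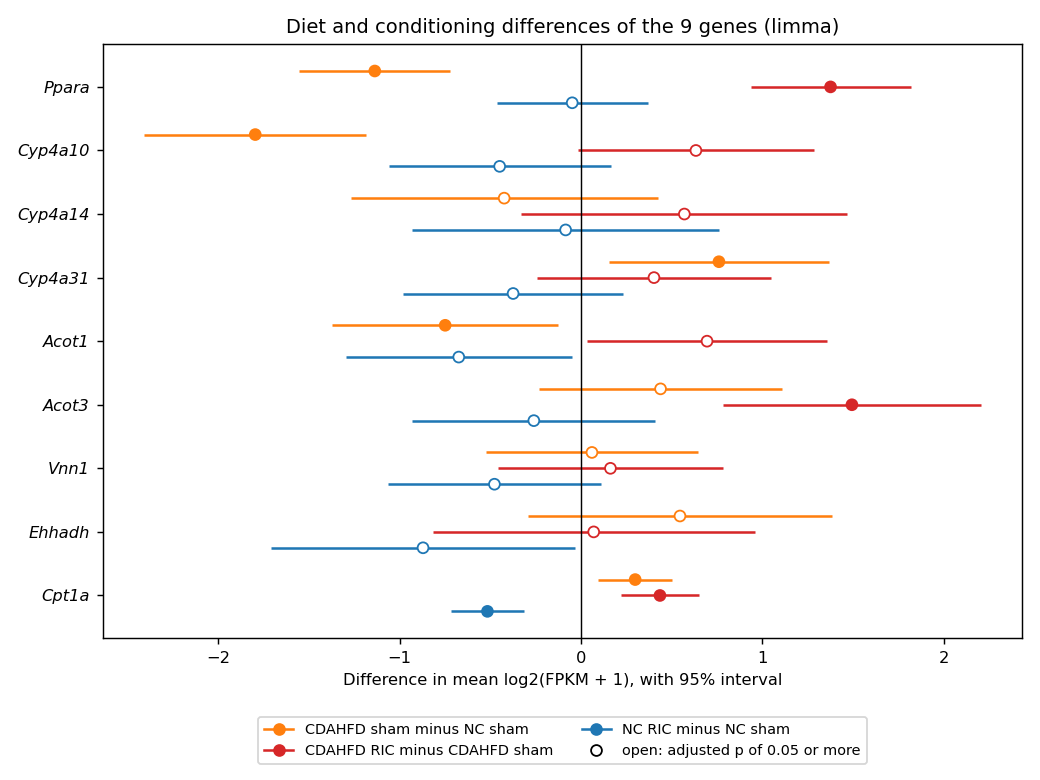
Difference in mean log2(FPKM + 1) with its 95% interval (horizontal axis) for each gene, for diet in the sham arm, RIC on CDAHFD and RIC on NC; filled points had a limma adjusted p under 0.05. For RIC on CDAHFD all 9 points lie right of 0 and 3 are filled, and the diet point of Cpt1a at 0.30 turns to -0.28 under median-ratio scaling.

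The thioesterases Acot1, which is cytosolic, and Acot3, which is peroxisomal, release free fatty acids from acyl-CoA. Acot1 was read at 15.4, 31.7, 16.7, 26.0 and 31.4 FPKM in NC sham and at 13.9, 12.9, 16.9, 13.4 and 14.0 FPKM in NC RIC. In CDAHFD sham it was 14.5, 21.6, 13.4, 9.33 and 10.9 FPKM, and in CDAHFD RIC 8.39, 31.4, 33.2 and 27.4 FPKM. Of the NC RIC and CDAHFD sham samples, 1 each lay above the lowest 2 NC sham samples, while 3 of 4 CDAHFD RIC samples lay above the whole CDAHFD sham group. Acot1 fell by 0.75 with diet in the sham arm (SE 0.30, limma adjusted p = 0.0297). The call was lost without any 1 of NC sham replicates 2, 4 and 5 or CDAHFD sham replicates 4 and 5 (adjusted p 0.0574 to 0.0788). It was also lost without the filter on low values (adjusted p = 0.0664). With RIC it was 0.69 on CDAHFD (adjusted p = 0.108) and -0.67 on NC (adjusted p = 0.264), and the interaction of 1.37 did not pass (adjusted p = 0.0634). It passed in 3 of 19 fits that each left out 1 sample, among them those without NC sham replicate 1 (adjusted p = 0.0468) or CDAHFD sham replicate 2 (adjusted p = 0.0329). It also passed with samples scaled to a common sum (adjusted p = 0.0448) and without CDAHFD sham replicates 2 and 5 together (adjusted p = 0.0452).

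Acot3 was the least abundant of the 9 genes, and among them it had the largest difference with RIC on CDAHFD. NC sham samples held 0.619, 3.27, 1.54, 3.85 and 2.22 FPKM and NC RIC samples 1.11, 2.02, 1.51, 2.12 and 1.23 FPKM. CDAHFD sham samples held 1.48, 5.10, 3.87, 3.44 and 2.82 FPKM, against 6.84, 7.97, 25.4 and 9.16 FPKM in CDAHFD RIC. Every CDAHFD RIC sample lay above every other sample, and replicate 3 stood far above its group.

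Acot3 rose by 1.49 with RIC on CDAHFD (SE 0.34, limma adjusted p = 0.00436), and by 1.10 without CDAHFD RIC replicate 3 (adjusted p = 0.0174). Its 3.69-fold ratio of mean FPKM is larger than the log2 difference gives, for 2 reasons. The pseudocount of 1 shrinks the log2 difference, and the mean FPKM is raised by CDAHFD RIC replicate 3 at 25.4 FPKM. With RIC on NC the difference was -0.26 (adjusted p = 0.746) and the interaction was 1.75 (SE 0.47, adjusted p = 0.0310). The interaction call was lost without NC sham replicate 2 or 4, NC RIC replicate 1, CDAHFD sham replicate 1 or CDAHFD RIC replicate 3 (adjusted p 0.0508 to 0.0607). Diet in the sham arm gave 0.44 (adjusted p = 0.221), or -0.10 under quantile normalization.

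Exons of Acot3 are overlapped by those of Gm49366 on the same strand and of 4732463B04Rik on the opposite strand, and the sources used here do not say whether the libraries or the counting kept strand. Even if strand was kept, reads from exon stretches that Acot3 shares with Gm49366 cannot be told apart, and no value of Gm49366 is given here. If strand was not kept, reads from the shared stretches of Acot3 and of the antisense gene 4732463B04Rik cannot be told apart either, although the table lists a value for each. The antisense gene 4732463B04Rik was listed at 1.90, 1.81, 1.06, 1.63 and 0.818 FPKM in CDAHFD sham and at 3.74, 6.10, 4.62 and 4.12 FPKM in CDAHFD RIC. It was higher with RIC in all 4 samples, by 1.21 (adjusted p = 0.00144), and its part in the Acot3 difference was not tested. Acot4, the peroxisomal thioesterase next to Acot3 that both loci also overlap, rose from 19.5 ± 2.88 (n = 5) to 34.8 ± 3.03 (n = 4) FPKM (log2 difference 0.81, adjusted p = 0.00786).

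Vnn1 encodes vanin-1, the pantetheinase that frees the vitamin part of coenzyme A. It was read at 52.5, 90.0, 24.1, 80.5 and 77.3 FPKM in NC sham and at 32.6, 34.6, 62.6, 31.3 and 59.7 FPKM in NC RIC. In CDAHFD sham it was 70.3, 65.1, 69.2, 57.0 and 49.0 FPKM, and in CDAHFD RIC 60.4, 84.5, 68.9 and 64.6 FPKM. The groups overlapped in each pair, and the NC sham samples alone ranged more widely than all the CDAHFD samples. The difference was 0.06 for diet in the sham arm (95% interval -0.53 to 0.65), and its sign turned under median-ratio scaling (-0.52) and quantile normalization (-0.18). RIC gave 0.16 on CDAHFD (adjusted p = 0.716) and -0.48 on NC (adjusted p = 0.416).

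Ehhadh encodes the peroxisomal bifunctional enzyme, which carries out the middle steps of peroxisomal beta-oxidation. NC sham samples held 452, 1003, 315, 745 and 920 FPKM and NC RIC samples 242, 270, 483, 240 and 627 FPKM. CDAHFD sham samples held 898, 1681, 797, 506 and 1066 FPKM and CDAHFD RIC samples 416, 1430, 1447 and 998 FPKM. Samples of 1 group differed widely, and the groups overlapped in every comparison. Neither diet in the sham arm (0.55, adjusted p = 0.224, and -0.04 under median-ratio scaling) nor RIC on CDAHFD (0.07, 95% interval -0.82 to 0.96, adjusted p = 0.922) passed. Under quantile normalization the diet difference in the sham arm was 0.93 and did pass (limma adjusted p = 0.0453). With RIC on NC the difference of Ehhadh was -0.87 (95% interval -1.71 to -0.03, adjusted p = 0.281).

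Cpt1a, the liver enzyme that commits long-chain fatty acids to mitochondria and the step limiting their oxidation, had the smallest relative spread between replicates in each group except NC RIC, where Acot1 had less. It was read at 60.3, 64.3, 60.8, 51.0 and 65.7 FPKM in NC sham and at 36.7, 38.9, 45.7, 40.5 and 48.1 FPKM in NC RIC. In CDAHFD sham it was 77.8, 77.8, 77.4, 73.9 and 65.0 FPKM, and in CDAHFD RIC 83.6, 106, 112 and 104 FPKM. Except for 1 CDAHFD sham sample at 65.0 FPKM and 1 NC sham sample at 65.7 FPKM, the groups formed 4 separate layers, from NC RIC at the bottom to CDAHFD RIC at the top.

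Cpt1a rose by 0.43 with RIC on CDAHFD (SE 0.10, limma adjusted p = 0.00557) and fell by 0.52 with RIC on NC (SE 0.10, adjusted p = 0.0182), both without overlap. The interaction was 0.95 (SE 0.14, adjusted p = 0.000931). The call on NC was lost without NC sham replicate 2 (adjusted p = 0.0616), NC sham replicate 5 (adjusted p = 0.0528) or NC RIC replicate 2 (adjusted p = 0.0574), and under quantile normalization (-0.39, adjusted p = 0.0684). On NC the summed hepatocyte markers did not overlap either and were higher with RIC, which came from albumin alone: Alb rose from a mean of 34829 to 48982 FPKM (log2 difference 0.50, adjusted p = 0.0496). The other 5 markers had means at or below those of NC sham, from -0.24 for Cps1 to -0.01 for Hnf4a, and none passed. The part of these in the Cpt1a difference was not tested. With diet in the sham arm Cpt1a was higher by 0.30 (adjusted p = 0.00955), less than the median gene, while median-ratio scaling gave -0.28 (adjusted p = 0.0209).

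Within CDAHFD RIC, the receptor and its targets parted in replicate 1. It held the highest Ppara of the group, 26.5 FPKM, and the lowest value of the group for all 8 targets. For Cyp4a10, Cyp4a14, Cyp4a31, Acot1 and Ehhadh it lay below even the lowest CDAHFD sham sample. The mean of the other 3 samples was 4.22 times its value for Cyp4a14, 3.65 times for Acot1 and 3.48 times for Cyp4a10, but 1.28 times for Cpt1a and 1.20 times for Vnn1. In FPKM of Cyp4a10 per FPKM of Ppara replicate 1 gave 14.6, against 54.7, 73.2 and 97.5 in the other 3 samples and a mean of 134 in NC sham. This sample also had the highest estimated depth, 26.4 M reads, and the lowest summed endothelial markers of the CDAHFD samples, 10.5 FPKM. Its summed T and NK cell markers, 3.24 FPKM, and neutrophil markers, 12.3 FPKM, were the lowest of the CDAHFD samples too. Its sums of hepatocyte, macrophage, stellate cell, cholangiocyte and B cell markers were not. The part of these in its low targets was not tested.

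**Figure D3:**
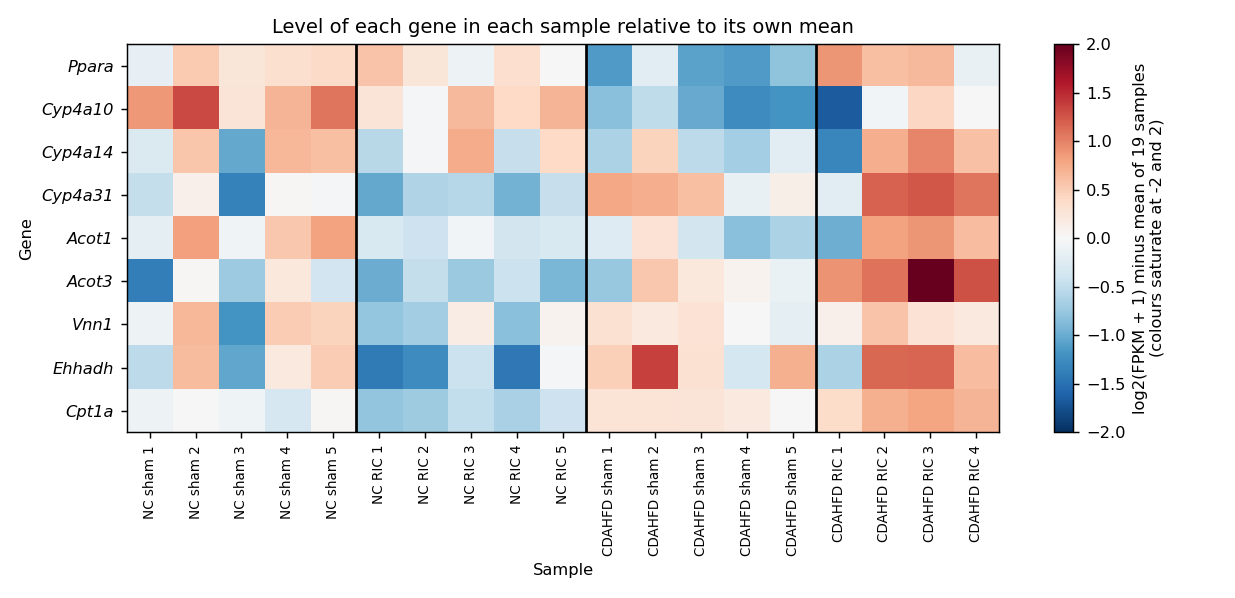
Level of each gene (rows) in each of the 19 samples (columns, grouped by diet and procedure) as log2(FPKM + 1) minus that gene's mean over all samples, from blue (lower) to red (higher), with colours saturating at -2 and 2. CDAHFD RIC replicate 1 is red for Ppara and blue for Cyp4a10, Cyp4a14, Acot1 and Ehhadh, 4 targets that are pale or red in replicates 2 to 4.

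Without CDAHFD RIC replicate 1, a check chosen in knowledge of its values, 6 of the 9 genes passed for RIC on CDAHFD, against 21.0% of all genes called and 7.18% called higher. As this sample was the lowest of its group for all 8 targets, leaving it out could only raise their differences. Cyp4a10 was then higher by 1.08 (limma adjusted p = 0.00314), Cyp4a14 by 1.09 (adjusted p = 0.0422) and Acot1 by 1.13 (adjusted p = 0.00375). Ppara remained at 1.25, Acot3 at 1.69 and Cpt1a at 0.52. Cyp4a31 came to 0.75 (adjusted p = 0.0579), Ehhadh to 0.47 and Vnn1 to 0.23, none of which passed. The interaction then passed for 5 genes, against 6.15% of all genes called and 3.48% called higher, with Cyp4a10 at 1.53 (adjusted p = 0.00506) and Acot1 at 1.81 (adjusted p = 0.00272) added. CDAHFD RIC replicate 3 was in turn the highest of its group for 7 targets. Without it 3 of the 9 genes passed for RIC on CDAHFD, against 19.6% of all genes called and 7.35% called higher. Cyp4a10 was then at 0.39, Acot1 at 0.51 and Cyp4a14 at 0.33, and the interaction passed for 2 genes, against 4.99% of all genes called.

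Replicates of the other groups also differed across several targets at once. Of the 8 targets, CDAHFD RIC replicate 3 was the highest of its group for 7 and CDAHFD sham replicate 2 for 6. NC sham replicate 2 was the highest for 5, and NC sham replicate 3 and CDAHFD sham replicate 4 were each the lowest for 5. The 9 genes together took 0.401% to 1.61% of a sample's summed FPKM, both extremes being CDAHFD RIC samples, replicates 1 and 3.

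Ratios between targets within a sample do not depend on how samples are scaled. Cyp4a14 per Cyp4a10 was 0.967 ± 0.359 (n = 5) in NC sham and 1.23 ± 0.363 (n = 5) in NC RIC, against 2.43 ± 0.546 (n = 5) in CDAHFD sham and 2.29 ± 0.272 (n = 4) in CDAHFD RIC. No NC sample exceeded 1.61 and no CDAHFD sample fell under 1.76. Cyp4a31 per Cyp4a10 averaged 0.0148 ± 0.00392 in NC sham against 0.0870 ± 0.0137 in CDAHFD sham, and the 2 diets did not overlap in either arm. Ehhadh per Cyp4a10 averaged 0.298 ± 0.0827 in NC sham against 1.51 ± 0.444 in CDAHFD sham. CDAHFD RIC replicate 1, low for each of these genes, had ratios among those of the other CDAHFD samples, at 1.96 for Cyp4a14 and 1.08 for Ehhadh. Acot3 per Acot1 had group means of 0.0908, 0.114, 0.251 and 0.542 from NC sham through NC RIC and CDAHFD sham to CDAHFD RIC, but neighbouring groups overlapped. These ratios were chosen after the levels were seen and are given with no test.

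**Figure D4:**
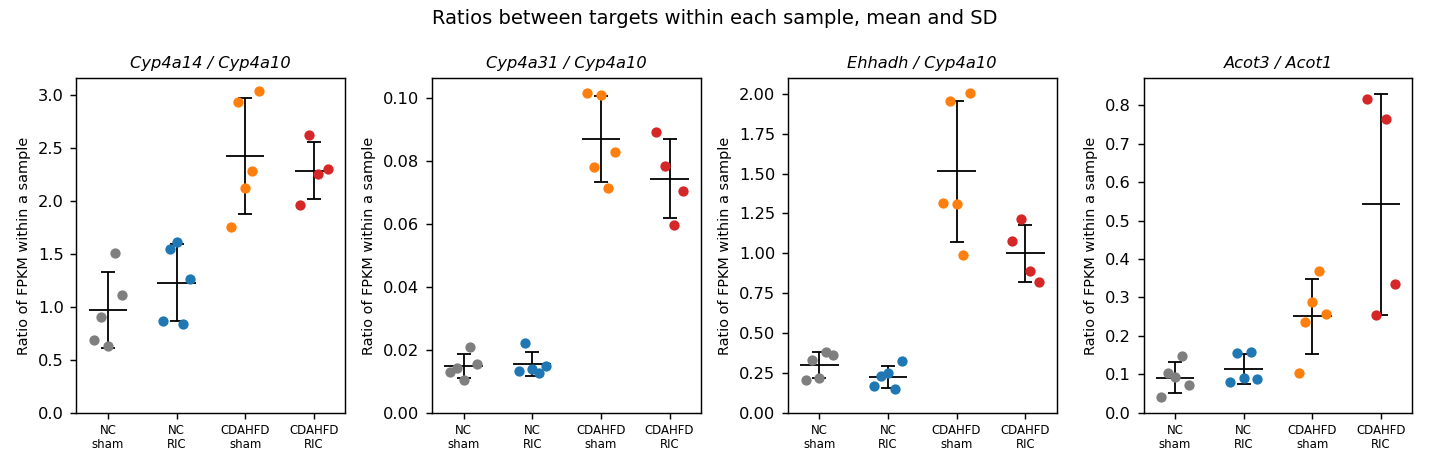
Ratio of the FPKM of 2 targets within each sample (vertical axes from 0), with points for samples and bars for the mean and SD of each group. The first 3 ratios, all to Cyp4a10, are separated by diet with no overlap, and the CDAHFD groups overlap each other.

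In the RIC arm, where CDAHFD RIC is set against NC RIC, 6 of the 9 genes passed, against 70.3% of all genes, 63.6% higher and 6.68% lower. Acot3 (2.19, limma adjusted p = 1.47e-05), Cyp4a31 (1.54, adjusted p = 0.000219), Ehhadh (1.49, adjusted p = 0.00443) and Cpt1a (1.25, adjusted p = 5.01e-09) were higher on CDAHFD. Cpt1a, Acot3 and Cyp4a31 were higher with no overlap, as were 53.3% of all genes. Vnn1 was higher by 0.70 (adjusted p = 0.0424) and Cyp4a10 fell by 0.71 (adjusted p = 0.0468). The Ehhadh call was lost under median-ratio scaling (0.92, adjusted p = 0.0726). The Vnn1 call was lost without NC RIC replicate 1, 2 or 4 or CDAHFD RIC replicate 2, 3 or 4 (adjusted p up to 0.113), and in 5 of 8 alternatives. The Cyp4a10 call was lost in 6 of 8 alternatives. It was also lost in 12 of 19 fits that each left out 1 sample, with its difference at -0.27 without CDAHFD RIC replicate 1.

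A further 69 genes of the pathway were listed by role, and 65 were tested. With RIC on CDAHFD 16 were higher and none lower, with a median of 0.17 against -0.08 for all genes tested. Of all genes 8.72% were called higher and 18.6% lower. Without CDAHFD RIC replicate 1 the count of higher genes was 20, and without replicate 3 it was 12, again with none lower. The shares of all genes called higher were then 7.18% and 7.35%. With RIC on NC 1 was lower and none higher, against 0.860% of all genes lower. The median there was -0.24, against -0.06 for all genes tested. Through the spread that all groups share in the fit, the count on NC became 4 lower without CDAHFD RIC replicate 1 and 0 without replicate 3. Of all genes 0.889% and 0.681% were then lower. For diet in the sham arm 18 were higher and 16 lower with a median of -0.01, against 63.9% and 10.3% of all genes. Under median-ratio scaling 12 were higher and 44 lower, against 30.5% of all genes higher and 30.5% lower. The interaction passed for 14, in each of which the difference with RIC was higher on CDAHFD than on NC. It passed for 6.72% of all genes, 3.59% in that direction.

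Among receptor partners and coregulators 4 of 14 rose with RIC on CDAHFD, against 8.72% of all genes called higher. Rxra, the retinoid X receptor with which PPAR-alpha pairs, was read at 22.6, 27.9, 21.9, 22.9 and 27.2 FPKM in CDAHFD sham and at 37.3, 36.2, 32.3 and 35.0 FPKM in CDAHFD RIC. The groups did not overlap (log2 difference 0.51, limma adjusted p = 0.00208). The coactivator Ppargc1a, which raises oxidative programmes in fasting, went from 2.69 ± 0.634 (n = 5) to 7.09 ± 2.52 FPKM (n = 4), a difference of 1.09 (adjusted p = 0.00173). Replicate 1, at 3.71 FPKM, was again the lowest. Nrip1, a corepressor, also rose (0.53, adjusted p = 0.0123).

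Of 15 mitochondrial enzymes and carriers, 3 rose with RIC on CDAHFD and none fell, against 8.72% of all genes called higher and 18.6% lower. Pdk4, the kinase that shuts pyruvate out of oxidation, was read at 17.0, 9.02, 11.9, 16.7 and 6.03 FPKM in CDAHFD sham and at 54.6, 54.2, 26.0 and 83.6 FPKM in CDAHFD RIC. All 4 RIC samples lay above the sham group, by 2.06 (limma adjusted p = 0.0042), and replicate 1 was not low here. Slc22a5, the carnitine carrier of the cell membrane, rose by 0.87 (adjusted p = 0.000929) and Hadhb, a subunit of the trifunctional protein, by 0.56 (adjusted p = 0.0246). The thioesterase Acot2 was at 0.04 (adjusted p = 0.934).

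Of 13 peroxisomal enzymes, Acot4 and the enoyl-CoA isomerase Eci2 (0.32, limma adjusted p = 0.0282) rose with RIC on CDAHFD. In that comparison 8.72% of all genes were called higher. Of 5 tested genes among other Cyp4a and microsomal enzymes, Cyp4a32 alone rose. It was read at 18.2, 21.6, 14.4, 13.7 and 17.1 FPKM in CDAHFD sham and at 25.7, 41.5, 45.8 and 42.9 FPKM in CDAHFD RIC, with no overlap (1.14, adjusted p = 0.00152). Unlike its near copy Cyp4a10, with which 34.8% of its 50-base windows are shared, Cyp4a32 stayed above the sham range in replicate 1. Cyp4a12a, another omega-hydroxylase, fell by 3.76 with diet in the sham arm and was at -0.46 with RIC on CDAHFD (adjusted p = 0.194).

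Of 8 genes of fatty acid uptake, binding and activation, 4 rose with RIC on CDAHFD, against 8.72% of all genes called higher. The acyl-CoA synthetases Acsl1 (0.80, limma adjusted p = 0.0244) and Acsl3 (0.55, adjusted p = 0.0216) were among them, while the binding protein Fabp1 was at -0.33 (adjusted p = 0.209). Of 10 secreted and lipid droplet targets 2 rose, G0s2, an inhibitor of triglyceride lipase (1.07, adjusted p = 0.0163), and Creb3l3, a liver transcription factor that works with PPAR-alpha in fasting (0.32, adjusted p = 0.00563). Fgf21, the fasting hormone of the liver, was at 0.24 on CDAHFD (adjusted p = 0.610). On NC Fgf21 was read at 8.35, 9.37, 6.11, 5.85 and 11.2 FPKM with sham and at 1.44, 1.82, 3.30, 2.94 and 4.48 FPKM with RIC. These ranges did not overlap, and Fgf21 fell by 1.30 (adjusted p = 0.0460). The Fgf21 call on NC was lost without the filter on low values, under quantile normalization and with a replicate block. Angptl4, a lipase inhibitor, was at 0.17 on CDAHFD (adjusted p = 0.472) and -0.48 on NC (adjusted p = 0.135).

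**Figure D5:**
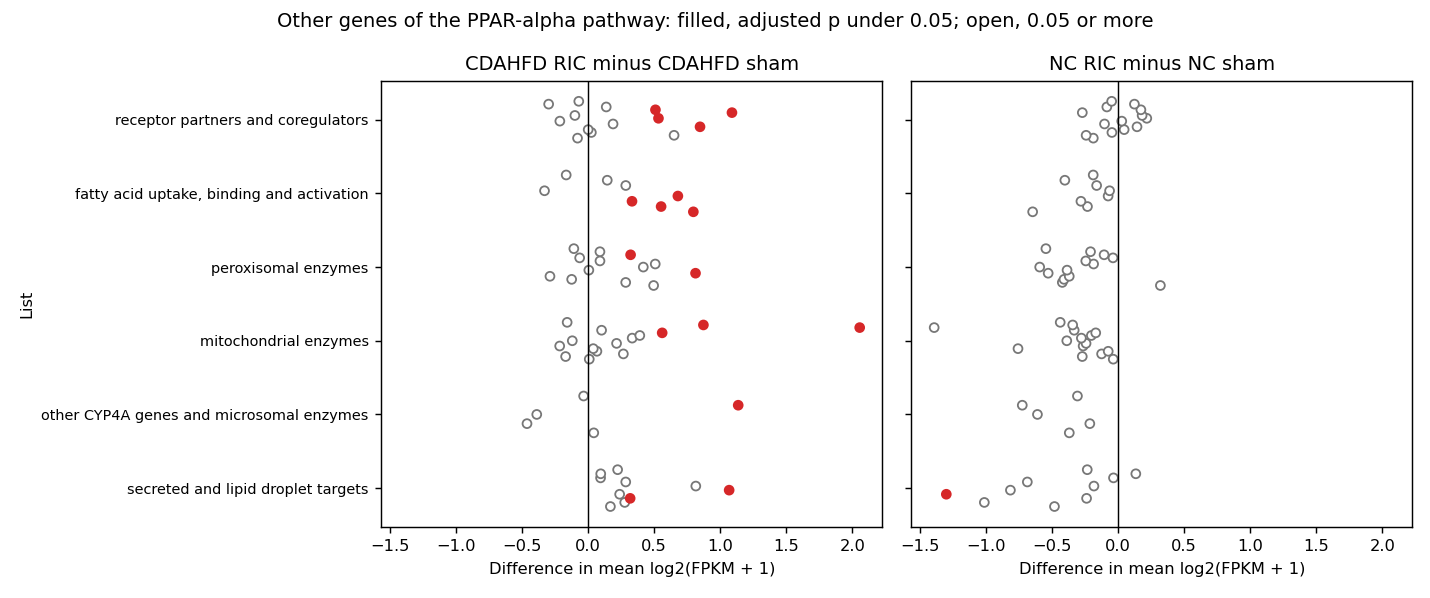
Difference in mean log2(FPKM + 1) (horizontal axis) of the other pathway genes, by list, for RIC on CDAHFD (left) and RIC on NC (right), with 1 point per gene and filled points at a limma adjusted p under 0.05. On CDAHFD 16 of 65 points are filled, all right of 0, and on NC 1 is filled, left of 0 (Fgf21). Of all genes tested 8.72% were called higher on CDAHFD and 0.860% lower on NC.

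Genes of 2 body states that also move PPAR-alpha targets were read beside them. Of 7 fasting-induced genes, 3 rose with RIC on CDAHFD, namely the growth factor binding protein Igfbp1 (2.59, limma adjusted p = 0.00167), the glucose-releasing enzyme G6pc (2.13, adjusted p = 0.00273) and the serine dehydratase Sds (1.02, adjusted p = 0.00379). Of 10 tested circadian clock genes Per2 fell by 1.34 (adjusted p = 3.19e-05) and Nr1d2 rose by 0.42 (adjusted p = 0.0358) in the same comparison. In this comparison, where 8.72% of all genes were called higher and 18.6% lower, markers of cell types moved too. Of 8 macrophage markers 3 were higher, and of 6 tested stellate cell markers 3 were lower. Of 6 tested hepatocyte markers 1 was higher and 2 were lower, and of 2 tested neutrophil markers 1 was lower. No tested endothelial, cholangiocyte or T and NK cell marker passed. The part of any of these in the differences of Ppara, Acot3 and Cpt1a was not tested. With diet in the sham arm, where 63.9% of all genes were called higher and 10.3% lower, 5 of the 7 fasting-induced genes were lower and 1 higher. The summed level of the 7 was 516 to 1163 FPKM in CDAHFD sham against 1778 to 1996 FPKM in NC sham. Of the 10 clock genes 6 were higher and 2 lower, with Dbp going from a mean of 1.42 to 18.3 FPKM and Per2 from 3.26 to 13.4 FPKM. Their part in the diet differences of Ppara, Cyp4a10 and Acot1 was not tested either.

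Predicted genes and pseudogenes were left out of the search for similar profiles. Genes with the most similar profile were found from the root mean square difference of centred log2(FPKM + 1) over the 19 samples. For Ppara they were Pdpr (0.22) and Crbn (0.28), against 0.61 for the spread of Ppara around its own mean, and the nearest of the other members was Acot1 at 0.65. For Cpt1a, Tmem120a (0.17) was the nearest, and for Cyp4a10 they were Cyp4a32 and Retsat (both 0.34). For Cyp4a14, Acot1 was nearer (0.39) than the nearest outside genes, Peg3 and Crot (both 0.44). Cyp4a31 was nearest to Hsd17b11 (0.27) and Aldh3a2 (0.32), and Ehhadh to Cyp4a31 (0.40), Plin2 (0.41) and Elovl5 (0.44). Acot1 was nearest to Chrna2 and Etfdh, Acot3 to Slc16a5 and Slco1a4, and Vnn1 to Bace1 and Ten1.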

How the data were processed

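RNA-seq of mouse liver gave 1 table of FPKM, which the authors deposited with 1 column per sample. The assembly mm10, the aligner HISAT2 2.2.1, the counter HTSeq 0.13.5, Trimmomatic 0.38, FastQC 0.11.9, R 3.4.1 and DESeq2 1.18.1 appear per the submitters' processing notes, with no order. The program and annotation behind the FPKM: not given in the sources used here. Groups came from the labels. Of 55335 entries, 3225 had no gene name (0.123% to 0.204% of a sample's FPKM) and were left out. Values were used as log2(FPKM + 1), which understates changes of low genes, for the 10577 genes whose mean reached 1 FPKM. No count model was used, since reads could not be recovered: 26.5% to 29.9% of low single-exon values lay within 2% of a whole read, so depth is an estimate. No 2 samples were duplicates.

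Each comparison was a contrast in 1 limma 3.58.1 fit (R 4.3.3, trend, 15 residual degrees of freedom) with a mean per group over all 19 samples, two-sided, Benjamini-Hochberg adjusted over all genes tested. The code was checked on simulated data. Alternatives were a pseudocount of 0.1, no filter, other scalings, the contrast's own groups, a replicate block and leaving out samples; the pathway counts without CDAHFD RIC replicates 1 and 3 were added after seeing the data. Positions came from GENCODE M21 (mm10). Plots used matplotlib 3.10.9.

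All members are named. Other genes were named by rule: up to 3 per list and comparison with the smallest p among those that passed, a fixed set of pathway genes, and the 2 nearest profiles. Those named here are part of what the rule gave, some genes it gave are not reported here, and 4732463B04Rik was added after its values were seen. The members and lists were chosen with earlier results of these data known.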

Additional observations from a re-analysis of the deposited data

Results flagged for a closer look

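In 3 of the 36 sets of 1 gene in 1 group, 1 sample stood apart from the others by Dixon's criterion, which chance alone meets in about 1 group in 20. Ppara in CDAHFD sham replicate 2 was 11.7 FPKM, against 5.75 to 7.47 in the other 4. Without that sample the Ppara diet difference was -1.30. Acot1 in NC RIC replicate 3 was 16.9 FPKM, above the other 4 samples. Acot3 in CDAHFD RIC replicate 3 was 25.4 FPKM, against 6.84 to 9.16 in the other 3.

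The response to RIC differed between the diets for 3 genes, by limma's interaction term: Ppara (1.42), Acot3 (1.75) and Cpt1a (0.95). For Cpt1a all CDAHFD RIC samples lay above the sham group and all NC RIC samples below it.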

How the results depend on the processing

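The higher Ppara, Acot3 and Cpt1a with RIC on CDAHFD passed under each of 8 alternatives and in each of 19 fits that left out 1 sample. Leaving out 1 sample gave 4 to 5 of the 9 genes for diet in the sham arm, 3 to 6 for RIC on CDAHFD, 0 to 1 for RIC on NC, 4 to 6 for diet in the RIC arm and 2 to 5 for the interaction. Without the filter on low values 3 passed for diet in the sham arm, where 29754 genes were tested and 41.5% of them called, and under quantile normalization 0 passed for RIC on NC (1 by the reported fit; the cause was not tested). Signs turned under median-ratio scaling for diet in the sham arm in Vnn1 (-0.52), Ehhadh (-0.040) and Cpt1a (-0.28), for RIC on NC in Ppara (0.031), and for diet in the RIC arm in Ppara (-0.25) and Cyp4a14 (-0.33). Under quantile normalization they turned for diet in the sham arm in Acot3 (-0.10) and Vnn1 (-0.18), and in Ppara for RIC on NC (0.038) and diet in the RIC arm (-0.13). With 1 sample left out, signs turned in Vnn1 for diet in the sham arm (-0.25 to 0.21), in Ehhadh for RIC on CDAHFD (-0.14 to 0.47), in Ppara (-0.15 to 0.030) and Cyp4a14 (-0.37 to 0.058) for RIC on NC, and in Cyp4a14 for diet in the RIC arm (-0.012 to 0.75). The Acot3 interaction did not pass with a pseudocount of 0.1 (adjusted p = 0.0602) or without the filter (adjusted p = 0.0834).

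Same-numbered samples did not vary together (correlation of deviations -0.174 to 0.176 over 27 pairs, median 0.026; 5 of 19 samples were nearest to their own number), so the numbers were not taken as pairs. With a replicate block the counts were 5, 3, 1, 4 and 3, and the calls of Cyp4a10 (-0.69, adjusted p = 0.0703) and Vnn1 (0.75, adjusted p = 0.0508) for diet in the RIC arm were lost.

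With 4 and 5 samples the 95% interval for RIC on CDAHFD ran from -0.33 to 1.47 for Cyp4a14 and from -0.82 to 0.96 for Ehhadh, so changes within these bounds are not excluded. The table holds no read counts, and no counting error is given.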
